A study of Arabidopsis thaliana with 4 samples.

Results

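The SnRK2 kinases of Arabidopsis thaliana, the SNF1-related protein kinases of family 2, are described here in seedlings of the mutant ced2 and of its wild type after osmotic stress. All 10 genes of the family, SNRK2.1 to SNRK2.10 with SNRK2.6 under its name OST1, were taken by locus, and all 10 were found among the 25356 genes on the array. They were read by 12 of the 43533 probes used: 8 genes had 1 probe each, and SNRK2.1 and SNRK2.8 had 2 each. The 10 genes comprised 5 of subclass I, 2 of subclass II and 3 of subclass III. All 12 probes were well above background on all 4 arrays and 0 were saturated, so all 10 genes entered the test and none of their folds is a bound.

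SnRK2 kinases are plant enzymes that are switched on within minutes of water loss or salt and pass the signal on by phosphorylating transcription factors, ion channels and RNA-decay proteins. Subclass III (SNRK2.2, SNRK2.3 and OST1) is strongly activated by abscisic acid (ABA): the bound hormone makes its receptors capture the clade A protein phosphatases, which otherwise hold these kinases inactive, and kinases of the RAF type then phosphorylate them. Subclass I (SNRK2.1, SNRK2.4, SNRK2.5, SNRK2.9 and SNRK2.10) contains the kinases that osmotic stress activates without ABA, and subclass II (SNRK2.7 and SNRK2.8) responds to ABA weakly. The control of these enzymes is mainly by phosphorylation, and an array measures only their transcripts.

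The ced2 group comprised 2 arrays of ced2 mutant seedlings, and the WT group 2 arrays of wild type seedlings that carry luciferase under the NCED3 promoter (NCED3pro:LUC). Both were labelled with the ecotype gl1-Col0, a Columbia line with the trichome mutation gl1. The sample labels give the luciferase transgene for the wild type only. In both groups, seedlings grown for 14 d stood in a 40% polyethylene glycol (PEG) solution for 6 h. Each RNA came from 20 pooled whole seedlings. There were no arrays of unstressed seedlings, so the response of a gene to PEG cannot be read from these data, only the difference between the genotypes under PEG.

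Signals are given as log2 of the processed spot brightness minus the 75th percentile of the same array, so 0 is the brightness at that percentile. That percentile was 3724 and 4465 on the ced2 arrays and 3342 and 2807 on the WT arrays (replicates 1 and 2 of each). The slide and the scan time were the same for all 4 arrays. On that slide ced2 replicates 1 and 2 took positions 4 and 3, and WT replicates 1 and 2 took positions 1 and 2, so an effect of position and one of genotype cannot be told apart. Across genes, ced2 replicates differed by a median of 0.033 on the log2 scale and WT replicates by 0.0449, against 0.36 to 0.365 between arrays of different genotype. The replicates are labelled biological, but they differed by less than repeat spots of one probe on the same array (medians of 0.0736 to 0.0907, over only 19 to 23 probes an array), and p-values here measure that narrow spread. The median difference, ced2 minus WT, over the 20835 genes tested was 0.05.

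The direction of every difference depends on the labels of the scanner files, which are followed throughout: "ced2 arrays" are those whose scanner files are labelled ced2. In the authors' value table, the columns labelled WT replicates 1 and 2 held the values of the scanner files labelled ced2, and the columns labelled ced2 held those of the WT files (r between 0.999918 and 0.999977 across probes). VSR1, a vacuolar sorting receptor that the published work on ced2 names as the mutated gene, had a log2 signal of -0.85 and -0.82 on the ced2 arrays, against 2.80 and 2.87 on the WT arrays, which was 12.7-fold lower. NCED3, the committed enzyme of ABA synthesis whose weak promoter activity gives ced2 its name, read -0.65 and -0.67 on the ced2 arrays and 0.68 and 0.67 on the WT arrays. Which labels are right was not settled from the files.

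Transcripts of 7 of the 10 SnRK2 genes were lower on the ced2 arrays (adjusted p under 0.05), 1 was higher and 2 did not pass the threshold. The median difference of the 10 was -0.57 on the log2 scale. The falls ran from 1.22-fold for OST1 to 2.04-fold for SNRK2.9, and the one rise was that of SNRK2.5, by 0.38. Across all genes tested, 77.9% passed the same threshold, 35.6% as lower and 42.4% as higher. The share of SnRK2 genes that passed in either direction, 80%, was thus close to that of all genes, while 7 of 10 were lower. A 2-fold difference was reached by 1 SnRK2 gene and by 11.3% of all genes. The ced2 and WT arrays did not overlap for any of the 10, which was also so for 90.2% of all genes tested.

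**Figure D1:**
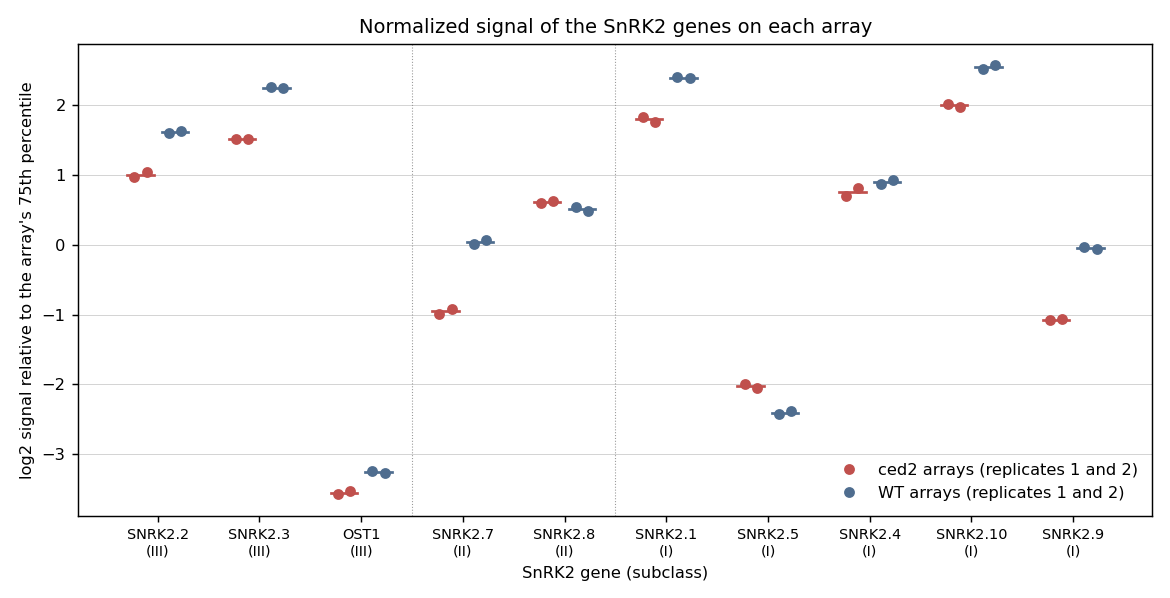
Normalized log2 signal of the SnRK2 genes (vertical axis, relative to the array's 75th percentile) on the 2 ced2 arrays (red, left) and the 2 WT arrays (blue, right), as labelled in the scanner files. Points are arrays and short bars group means. The ced2 points lie below the WT points for 8 genes and above them for SNRK2.8 and SNRK2.5; heights of different genes cannot be compared, since each has its own probe.

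All 3 genes of subclass III, the kinases at the core of ABA signalling, were lower on the ced2 arrays. SNRK2.3 (AT5G66880), which acts with SNRK2.2 in the ABA responses of seeds and roots, had a log2 signal of 1.52 and 1.51 on the ced2 arrays and 2.26 and 2.24 on the WT arrays. The groups lay far apart compared with either pair of replicates, and SNRK2.3 fell by 0.73 (95% interval -0.80 to -0.67, limma adjusted p = 0.00023), to 0.601 of the WT level. SNRK2.2 (AT3G50500) read 0.97 and 1.04 on the ced2 arrays, against 1.60 and 1.63 on the WT arrays. It fell by 0.61 (SE 0.0368, limma adjusted p = 0.000703), so both partners of this pair were lower by similar amounts. Their differences lay 0.12 apart (range 0.06 to 0.19 over the 4 pairings of a ced2 array with a WT array; exact permutation p = 0.333). Here and for the pairs below, that p is the smallest that 2 arrays against 2 allow. It therefore cannot tell a large gap from a small one.

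OST1 (SNRK2.6, AT4G33950), the kinase that closes guard cells in response to ABA, had the smallest fall of those that passed. Its log2 signal was -3.57 and -3.53 on the ced2 arrays, against -3.25 and -3.27 on the WT arrays. The groups did not overlap, and OST1 fell by 0.29 (limma adjusted p = 0.00243). The size of this fall depended on the scaling, at -0.52 with quantile normalization, and its call was lost with normexp background correction (-0.39, adjusted p = 0.0961). Without any scaling between arrays it turned to 0.12 and did not pass. In whole seedlings, guard cells give a small part of the RNA, and in any bulk sample fewer cells of a type and less RNA per cell cannot be told apart. Across all genes tested, 42.4% passed as higher and 35.6% as lower. Of 7 guard cell markers, 3 rose, 2 fell and 2 did not pass, close to those shares. Their summed signal was 34.5 to 34.9 times the 75th percentile on the ced2 arrays and 38.1 to 40.5 times on the WT arrays. Most of that sum came from TGG1, named here after its value was seen. TGG1 had a log2 signal of 5.05 and 5.04 on the ced2 arrays, against 5.18 and 5.27 on the WT arrays. Its fall of 0.18 did not pass with quantile normalization (-0.008). With normexp, where 4834 of 20835 genes passed as higher and 5499 as lower, 1 of the 7 markers rose and 1 fell. MYB60, a guard cell transcription factor, rose by 0.90 (0.65 and not past with normexp, adjusted p = 0.0578), and GORK, the channel that lets potassium out of guard cells, fell by 1.13. The part of guard cells in the OST1 difference was not tested.

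The 2 genes of subclass II moved apart. SNRK2.7 (AT4G40010) read -0.99 and -0.92 on the ced2 arrays and 0.02 and 0.06 on the WT arrays. This was close to a 2-fold fall, of 1.00 on the log2 scale (SE 0.0365, 95% interval -1.10 to -0.89, limma adjusted p = 0.000295), and only 3.89% of all tested genes lay below it. SNRK2.8 (AT1G78290), a kinase linked to leaf growth and immunity, had 0.59 and 0.63 on the ced2 arrays and 0.55 and 0.48 on the WT arrays with its brighter probe. This difference of 0.10 did not pass (SE 0.0337, adjusted p = 0.0696). The dimmer SNRK2.8 probe read -2.61 and -2.61 on the ced2 arrays, against -2.95 and -3.00 on the WT arrays. Tested over all probes, of which 74.1% passed, it was higher by 0.37 (limma adjusted p = 0.00189), so the 2 probes of SNRK2.8 disagree on the size of the difference and on the call. The mean of both probes rose by 0.23 (adjusted p = 0.00546), whereas scaling to the array median turned the brighter probe to -0.12. Under every one of these settings SNRK2.7 was the lower of the pair. Within arrays, where a single factor per array does not enter, the SNRK2.7 difference lay below that of SNRK2.8 by 1.09 (range -1.16 to -1.02, exact permutation p = 0.333).

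Subclass I held the largest fall, the one rise and a gene that did not pass. SNRK2.9 (AT2G23030), the member for which transient assays in protoplasts found no activation by osmotic stress, had a log2 signal of -1.08 and -1.06 on the ced2 arrays and -0.03 and -0.06 on the WT arrays. It fell by 1.03 (SE 0.0272, limma adjusted p = 0.000205), and 3.62% of all tested genes lay lower. The gap between the groups was many times the difference between the replicates of either. The 3 genes whose profile over the 4 arrays was most like that of SNRK2.9, by Euclidean distance after centring each gene on its mean, were AT1G62760 (0.00907), KCS2 (0.0163) and PIMT2 (0.018). With 4 arrays such likeness is common, and 185 genes lay within a distance of 0.1.

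SNRK2.1 and SNRK2.5, close relatives within subclass I, went in opposite directions. SNRK2.1 (AT5G08590) read 1.84 and 1.76 on the ced2 arrays, against 2.40 and 2.38 on the WT arrays, and fell by 0.59 (limma adjusted p = 0.000666). Its dimmer probe, at -0.09 and -0.09 on the ced2 arrays and 0.35 and 0.33 on the WT arrays, fell by 0.43 (limma adjusted p = 0.000904, over all probes). Both probes of SNRK2.1 thus gave a fall, the dimmer one the smaller. SNRK2.5 (AT5G63650) had -2.00 and -2.05 on the ced2 arrays, against -2.42 and -2.39 on the WT arrays, and was the only SnRK2 gene whose brightest probe passed as higher, by 0.38 (SE 0.0299, limma adjusted p = 0.00127). The rise was 0.25 with quantile normalization and 0.16 with the array median as the scale. The within-array difference between SNRK2.1 and SNRK2.5, which a single factor per array leaves unchanged, was -0.97 (range -1.01 to -0.94, exact permutation p = 0.333). Other processing did change it. With quantile normalization SNRK2.1 and SNRK2.5 stood at -0.52 and 0.25, and with normexp at -0.55 and 0.27, so the gap was smaller under both.

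SNRK2.10 and SNRK2.4, a pair of close relatives that act in roots under salt and osmotic stress and phosphorylate the RNA-decapping protein VARICOSE, differed in size. SNRK2.10 (AT1G60940) had 2.02 and 1.98 on the ced2 arrays and 2.51 and 2.57 on the WT arrays. It fell by 0.54 (SE 0.0351, limma adjusted p = 0.000815). SNRK2.4 (AT1G10940) read 0.70 and 0.82 on the ced2 arrays, against 0.86 and 0.93 on the WT arrays, the nearest approach of the groups among the 10 genes. The difference of -0.14 did not pass (95% interval -0.31 to 0.03, adjusted p = 0.0938) and passed as lower with the array median as the scale, at -0.36 (adjusted p = 0.00633). Without scaling it turned to 0.27 and did not pass. Leaving out 1 array at a time moved it between -0.20 and -0.08. The difference of SNRK2.10 lay below that of SNRK2.4 by 0.40 within arrays (range -0.49 to -0.31, exact permutation p = 0.333).

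**Figure D2:**
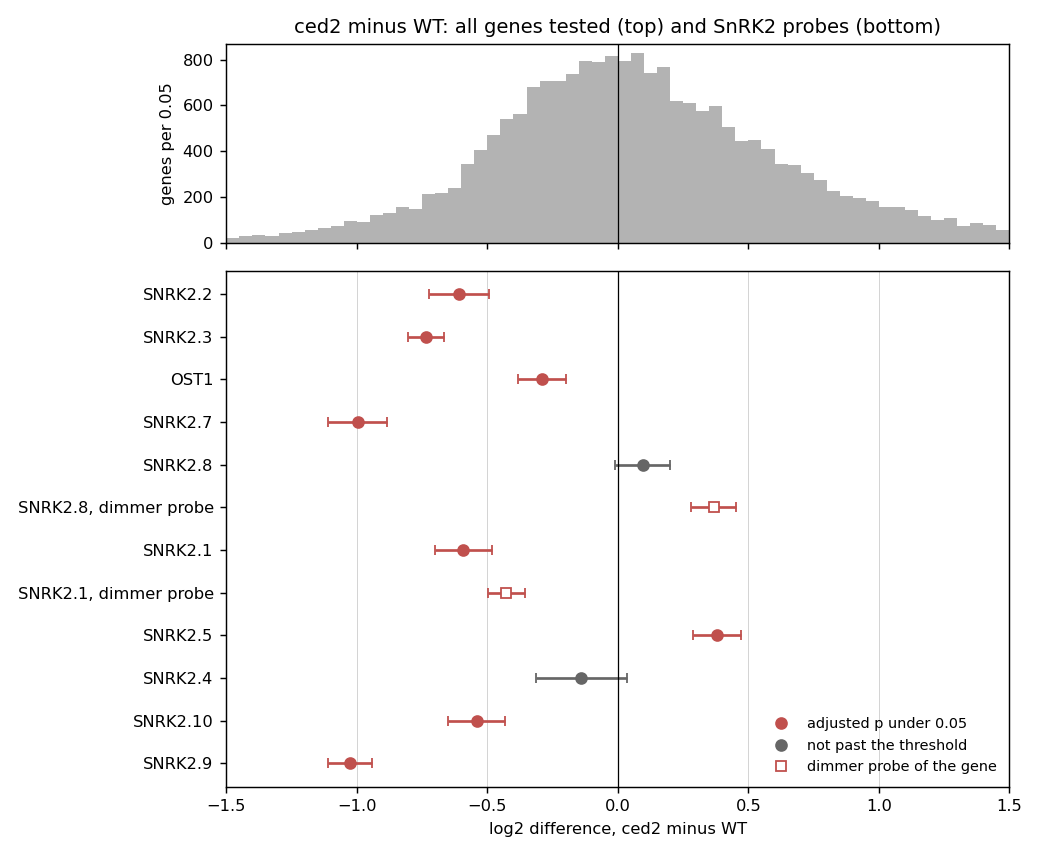
Log2 difference, ced2 minus WT (horizontal axis, scanner file labels), for all 20835 genes tested (top, genes per bin of 0.05; genes beyond 1.5 on either side are not drawn) and for the 12 SnRK2 probes (bottom, with 95% intervals from limma). Filled circles are the brightest probe of each gene and open squares the dimmer probe. 8 of the 10 circles lie left of 0, and those of SNRK2.9 and SNRK2.7 lie farthest left.

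Because close relatives share sequence, a probe may bind more than 1 of them. The probe sequences were not used here, so shared hybridization was not tested for any pair. This holds for SNRK2.2 and SNRK2.3, SNRK2.4 and SNRK2.10, SNRK2.1 and SNRK2.5, and SNRK2.7 and SNRK2.8. The scanner software put the error of each SnRK2 spot at about 10% of its signal.

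The ced2 arrays were brighter before scaling, and this bears on the smaller falls. In processed signal without any scaling, SNRK2.10 read 15115 and 17555 on the ced2 arrays, against 19042 and 16654 on the WT arrays, so the groups overlapped. SNRK2.9 did not overlap, with 1756 and 2145 on the ced2 arrays and 3280 and 2686 on the WT arrays. SNRK2.7 was alike in this, at 1879 and 2354 on the ced2 arrays and 3382 and 2935 on the WT arrays. So was SNRK2.3, at 10690 and 12750 on the ced2 arrays and 15999 and 13305 on the WT arrays. SNRK2.5 and SNRK2.8 did not overlap either, and both were brighter on the ced2 arrays. Without scaling the median over all genes moved to 0.46, and of the 10 genes SNRK2.9 and SNRK2.5 alone passed, at -0.61 and 0.79. Of all genes tested, 42.8% passed without scaling, 3.69% as lower. With the array median as the scale the median over all genes moved to -0.17, a shift of over 0.2 from the reported scale. All 10 SnRK2 genes then passed, 9 of them as lower, while 80.3% of all genes passed, 51.8% as lower. Relative to the median of all genes, the median of the 10 SnRK2 genes stood at -0.61 on the reported scale. A single factor per array shifts the difference of every gene alike. The array median and no scaling therefore give the same value by construction, and say nothing on its stability. With quantile normalization it was -0.53, and with normexp -0.44.

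**Figure D3:**
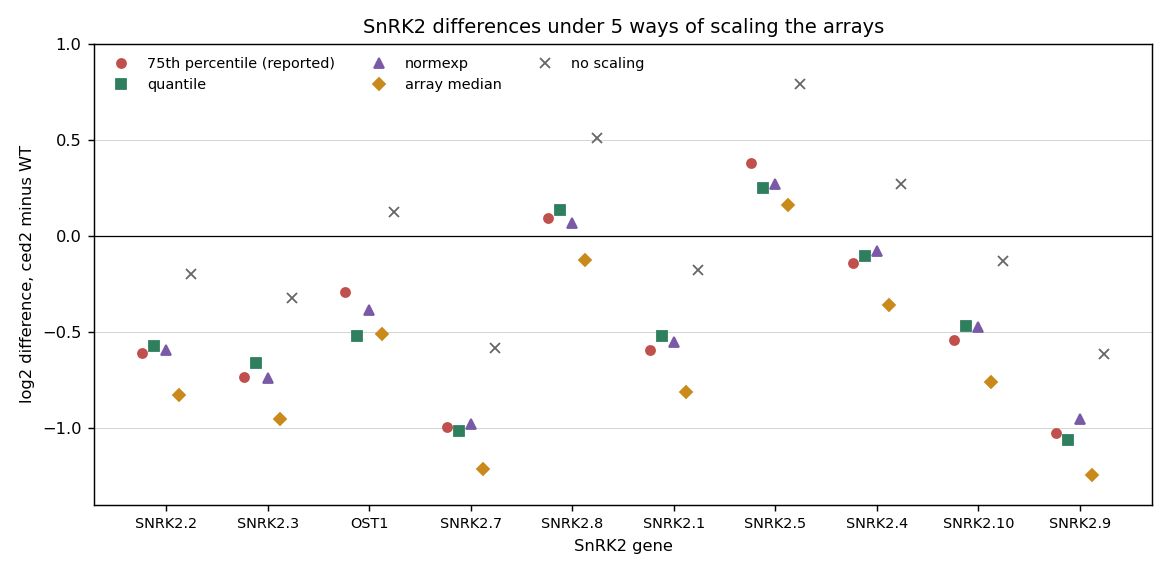
Log2 difference, ced2 minus WT (vertical axis, scanner file labels), of each SnRK2 gene under 5 treatments of the signals: the 75th percentile as reported, quantile normalization, normexp background correction, the array median and no scaling. SNRK2.2, SNRK2.3, SNRK2.7, SNRK2.1, SNRK2.10 and SNRK2.9 lie below 0 in all 5, and SNRK2.5 above 0 in all 5. OST1, SNRK2.8 and SNRK2.4 change sign in at least 1.

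The genes upstream and downstream of SnRK2 kinases did not all move with them. The counts of each list, here and below, stand beside 35.6% of all genes tested passing as lower and 42.4% as higher. As lower, 26.4% of all genes passed with normexp and 3.69% without scaling. Above the kinases, the clade A phosphatases, which hold the kinases of subclass III inactive, were lower in 8 of 9 genes, with a median difference of -0.69. Without scaling between arrays 2 of the 9 passed as lower, with a median of -0.28. HAI3 fell by 2.30, ABI2 by 1.22, HAI2 by 0.84 and HAI1 by 0.74 (limma adjusted p between 0.00016 and 0.000245). Those of HAI1 and HAI2 did not pass without scaling (adjusted p = 0.322 and 0.176). The ABA receptors went the other way, with 7 of the 11 tested higher, 1 lower and 3 not past, and a median of 0.40. Of these, PYL3, mentioned here after its value was seen, counted as higher but was not well above background on 1 of the WT arrays, and with normexp it turned to -0.34 and did not pass. With only genes above background on all 4 arrays, 6 of 9 receptors were higher and 1 was lower, beside 8797 and 7289 of 19950 genes. With normexp 4 of 11 receptors were higher, beside 4834 of 20835 genes. PYL4 rose by 0.91 (limma adjusted p = 0.0006), PYL2 by 0.86, PYL6 by 0.40 and PYL9 by 0.39. The calls of PYL2 and PYL6 were lost with normexp (adjusted p = 0.12 and 0.295). The probes of PYL11, PYL12 and PYL13 were too dim to be tested.

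The RAF-like kinases that phosphorylate SnRK2 enzymes were lower in 8 of 13 genes and higher in 2, with a median of -0.24. RAF35 had a log2 signal of 1.38 and 1.39 on the ced2 arrays, against 2.37 and 2.33 on the WT arrays, and fell by 0.97 (limma adjusted p = 0.000208). RAF18 fell by 0.48 and RAF4 by 0.43, and RAF16 rose by 0.33. The rise of RAF16 was lost with quantile normalization (0.06) and normexp (0.03), and averaging the probes of each gene turned the list's median to 0.02, as no scaling did (0.18). Other regulators of SnRK2 activity or turnover were lower in 5 of 8 genes and higher in 0, with a median of -0.28, though the list leaned the other way without scaling (0.14). EGR1 and EGR2, phosphatases of clade E, fell by 1.03 and 0.96 (limma adjusted p = 0.000187 and 0.000293). PP2-B11, an F-box protein that marks SNRK2.3 for degradation, fell by 0.61, and HOS15, which promotes turnover of OST1, fell by 0.43.

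Below the kinases, the transcription factors they phosphorylate were lower in 7 of 9 genes tested and higher in 1, with a median of -0.69. Without scaling 3 passed as lower and the median was -0.28. ABI5 fell by 1.62, ABF2 by 1.13, AKS1 by 1.05 and ABF1 by 0.69 (limma adjusted p between 0.00016 and 0.000288). ABI5, ABF2 and ABF1 are basic leucine zipper factors that bind ABA response elements, and AKS1 is a helix-loop-helix factor that SnRK2 kinases inhibit. NTL6, a membrane-bound NAC factor chosen here after its value was seen, was the one that rose, by 0.26. DPBF2 was dim and not tested.

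Substrates at membranes showed no common direction: 3 of 8 rose, 1 fell and 4 did not pass, with a median of 0.04 that turned to -0.18 with the array median as the scale and to -0.02 with normexp. RBOHD, an oxidase that makes reactive oxygen, had 1.33 and 1.40 on the ced2 arrays, against 0.18 and 0.25 on the WT arrays, and rose by 1.15 (limma adjusted p = 0.000303). NRT1.1, a nitrate transporter, rose by 0.72, RBOHF by 0.33, and the anion channel SLAH3 fell by 0.39, a fall that no scaling turned to 0.02. The guard cell channels SLAC1, ALMT12 and KAT1, examples chosen after their values were seen, differed by 0.08, 0.00 and -0.00 and did not pass (adjusted p = 0.152, 0.926 and 0.965).

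The RNA, chromatin and dehydrin substrates were lower in 4 of 5 genes, with a median of -0.44. With quantile normalization, where 38% of all genes passed as lower, 2 of these passed as lower and the median was -0.17. Without scaling 0 passed and the median was -0.02. VCS, which encodes VARICOSE, fell by 0.19 (limma adjusted p = 0.00619). That call did not survive averaging its probes (adjusted p = 0.265), and no scaling turned the value to 0.23. The chromatin remodeller BRM fell by 0.52 and the dehydrins ERD10 and ERD14 by 0.44 and 0.47 (limma adjusted p between 0.0201 and 0.036). These 3 calls were not stable. Each was lost on leaving out either of at least 2 arrays: BRM without ced2 replicate 1 or 2 (adjusted p = 0.0998 and 0.0565), ERD10 without ced2 replicate 1, ced2 replicate 2 or WT replicate 2 (0.0772, 0.122 and 0.0739), and ERD14 without ced2 replicate 2, WT replicate 1 or WT replicate 2 (0.103, 0.063 and 0.139). With quantile normalization ERD10 and ERD14 differed by -0.12 and -0.17 and did not pass. Over the 7 lists, 47 of the 63 tested partner genes passed (74.6%), close to the 77.9% of all genes, with 34 lower and 13 higher.

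**Figure D4:**
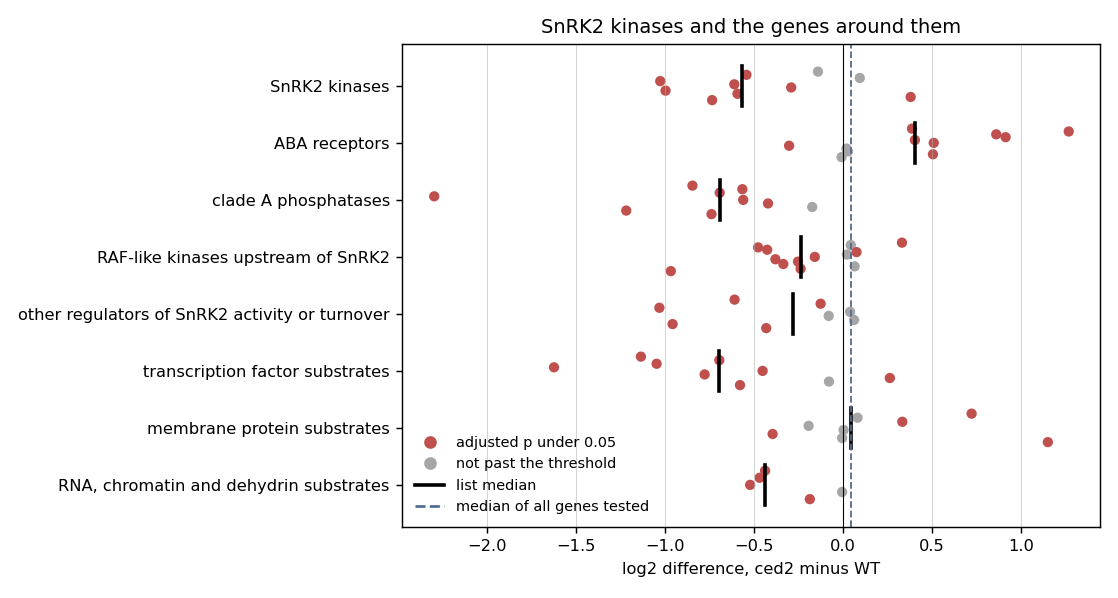
Log2 difference, ced2 minus WT (horizontal axis, scanner file labels), of the SnRK2 genes and of the tested genes of 7 lists of partners (rows). Red points passed an adjusted p of 0.05, grey points did not, black bars are list medians and the dashed line is the median of all genes. The medians of the SnRK2 genes (-0.57), the phosphatases (-0.69) and the transcription factor substrates (-0.69) lie left of 0, and that of the ABA receptors (0.40) lies right.

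Among kinases of other families that share SnRK2 targets, 2 of 7 rose and 3 fell, with a median of -0.02 (0.39 without scaling) and a median absolute difference of 0.108, against 0.567 for the SnRK2 genes and 0.362 for all genes. KIN10, a catalytic subunit of the sugar and energy kinase SnRK1, fell by 0.67 (limma adjusted p = 0.000605), while CPK4, a calcium-dependent kinase, rose by 0.28 and the related CPK21 and CPK6 differed by -0.14 and 0.11 (limma adjusted p = 0.0138 and 0.016). The calls of CPK6 and CPK21 were lost on leaving out either ced2 array or WT replicate 1 (adjusted p between 0.054 and 0.108), and that of CPK6 without WT replicate 2 (0.051). CPK6 turned to -0.11 with the array median as the scale, and CPK21 to 0.28 without scaling.

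Markers of root tissue moved with the genotype beside these results. Of 10 root markers, 8 rose, 1 fell and 1 did not pass. Of all genes tested, 42.4% passed as higher and 35.6% as lower. The fall among the markers was that of NRT2.1, a nitrate transporter. NRT2.1 was not well above background in ced2 (either array), so it was at least 1.81-fold lower there, and this call was lost with normexp (adjusted p = 0.0913). With normexp, where 4834 of 20835 genes passed as higher and 5499 as lower, 6 root markers rose and 0 fell. Their summed signal was 2.02 to 2.03 times the 75th percentile on the ced2 arrays and 0.949 to 0.975 times on the WT arrays. IRT1, the iron transporter of the root epidermis, rose by 3.37, COBL9 by 1.76, EXPA18 by 1.61 and RHD6 by 1.20. SCR, mentioned here after its value was seen, was the root marker that did not pass, at 0.09 (limma adjusted p = 0.0916). Of 8 leaf photosynthesis markers, 3 fell, 1 rose and 4 did not pass, with a summed signal of 482 to 557 times the 75th percentile on the ced2 arrays and 610 to 698 times on the WT arrays, and a median of -0.33 that turned to 0.05 with quantile normalization and to 0.08 without scaling. Both root and leaf markers were present on all 4 arrays, as whole seedlings should show, apart from NRT2.1. The part of tissue make-up in the SnRK2 differences was not tested.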

How the data were processed

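Labelled RNA of 4 samples was hybridized to one-colour Agilent arrays. Per the submitters' processing notes, spot values came from Agilent Feature Extraction 10.7.1.1. The scanner files hold, per the file headers, for each spot, a background-subtracted and spatially detrended intensity (the processed signal), its error, the median intensity of the spot and its local background, and flags, and arrays were not normalized to each other. The deposited value table of the authors has log2 values whose scale is unstated. Set against the scanner files it was the log2 processed signal minus the 75th percentile, centred on each probe's median (99.9% of values within 0.01). Its column medians were 0.0789 and -0.0334 (labelled WT) and 0.0147 and -0.0319 (labelled ced2). The genotype of its columns stays unsettled, since each held the values of the opposite genotype's scanner files.

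Control and outlier spots were left out, spots of a probe averaged, and 70 of 43603 probes without a spot left on some array dropped. A probe was above background where the majority of its spots were flagged so. Probes were named by looking up their unversioned accessions in RefSeq's genes (assembly TAIR10.1): 34236 probes had a gene and 9297 had none there and were left out of the gene test. The brightest probe stood for each gene, a choice that mattered for 6903 genes, and genes above background on both arrays of a group were tested. Apart from EDR1, the RAF-like kinases carry symbols from general knowledge of their loci, since the table gives only locus tags there, and so do EGR1, EGR2 and SCS. Array positions and the build of the array differ from that table, so no coordinates are given.

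The groups were compared as ced2 minus WT with limma 3.58.1 in R 4.3.3 (lmFit and eBayes, two-sided, 2 residual and 1.49 prior degrees of freedom), Benjamini-Hochberg adjusted over all genes, or all probes for probe results. The precision is limited by the number of arrays, 2 a group. Replicate numbers did not pair the arrays (r = 0.0473 across genes). The fit was run on simulated data with known changes in a small share of genes and spread drawn from its own model. Most genes passed in the real data, so that run does not check the calls made here. The SnRK2 genes and all lists were chosen with earlier results of these data known. The rule for named genes took the 10 SnRK2 genes, VSR1 and NCED3, up to 4 members of each partner list by smallest p, and the 3 genes most like the SnRK2 gene with the largest difference. Alternatives were quantile normalization, normexp (offset 50, on median intensities), other filters, the authors' table, averaged probes, a replicate block, an intensity trend, a threshold of 0.01, leaving out each array and, added after seeing the data, the array median and no scaling.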

Additional observations from a re-analysis of the deposited data

How the results depend on the processing

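Of 150 values of single SnRK2 genes recomputed under the alternatives, 125 kept their direction and their side of the threshold. Other filters, the replicate block, the intensity trend and the stricter threshold left every SnRK2 difference as it was. Under these settings only the side of the threshold could change, and under the labels of the authors' table direction had to turn. The tally therefore says little on how stable the directions were. Leaving out each array in turn left 7 SnRK2 genes lower, 1 higher, 10 SnRK2 probes past the threshold, between 13833 and 15121 genes called and between 42 and 48 partner genes called. The counts of SnRK2 genes higher became 2 with quantile normalization, with averaged probes and with an intensity trend. With normexp 10333 genes were called, against 16239 as reported. Without scaling 1 SnRK2 gene passed as lower, 8910 genes were called and 18 partner genes passed, and SNRK2.4 and OST1 turned to 0.27 and 0.12, neither past the threshold. With the array median as the scale SNRK2.8 turned to -0.12 (adjusted p = 0.0335). The cause of these changes was not tested beyond the shift of the median of all genes that each scaling brings.

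Under the labels of the authors' value table every direction turned, by construction: 7 SnRK2 genes were then higher in ced2 and 1 lower, with SNRK2.1 at 0.59, SNRK2.2 at 0.61, SNRK2.3 at 0.74, SNRK2.4 at 0.14, SNRK2.5 at -0.38, OST1 at 0.29, SNRK2.7 at 1.00, SNRK2.8 at -0.0943, SNRK2.9 at 1.03 and SNRK2.10 at 0.54.

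Among all calls, 54.4% were higher, against 35.5% with the array median and 91.4% without scaling; at a minimum of 2-fold the shares were 70.7%, 46.9% and 91.6%, and 61.2% with quantile normalization and 52.6% with normexp. With the replicate number as a block SNRK2.4 passed (-0.14, limma adjusted p = 0.0378). The calls of ERD10 and ERD14 were lost with it (limma adjusted p = 0.0777 and 0.0898). With this block 9 SnRK2 genes were called in place of 8, and 75.3% of all genes. Among the SnRK2 and named partner genes the block changed no other call. LHCB1.3, a leaf marker that fell by 0.43, also lost its call there (adjusted p = 0.099) and on leaving out ced2 replicate 2, WT replicate 1 or WT replicate 2 (0.113, 0.0744 and 0.161). An intensity trend also brought SNRK2.4 and SNRK2.8 past the threshold (adjusted p = 0.0394 and 0.0294). The data have 2 arrays a group on 1 slide, no unstressed seedlings and a narrow spread between replicates, so a small adjusted p here says little about spread between independent batches of plants.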
